A study of Homo sapiens with 6 samples.

Results

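The promoters of 35 genes of ribosome biogenesis were examined for peaks of 2 histone marks in OCI-AML3 cells, with and without knockout of mutant NPM1 (mtNPM1). The genes were all autosomal protein-coding genes whose symbol begins with NOP, UTP, RRP or POLR1 followed by further digits or capitals. They made up 35 of 19229 genes in the GRCh37 annotation used for H3K27Ac and 35 of 18777 genes in the GRCh38 annotation used for H3K4me3. The remaining genes of each annotation are called other promoters below.

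OCI-AML3 is an established line of acute myeloid leukemia that carries mtNPM1. The control cells received a guide RNA named sgNeg, the knockout cells received the guide RNA sgNpm1A, and all were harvested 3 days after transfection per the labels, while the methods of the study give a longer time. Acetylated lysine 27 of histone H3 (H3K27Ac, found at active promoters and enhancers) and trimethylated lysine 4 (H3K4me3, found at active promoters) were each profiled by ChIPmentation, in which precipitated chromatin is tagged by the Tn5 transposase. There was 1 library for each guide and mark, giving 4 peak lists, and without replicates no test of a difference between guides was possible. The 2 input libraries were not analysed here. All labels name OCI-AML3. The H3K27Ac list names carry a tag that could also be read as OCI-AML2, another leukemia line used in the study, whose NPM1 is wild-type, and this was not settled, so the H3K27Ac values hold for the line as labelled. The cells were bulk cultures, so that fewer cells carrying a mark and less of the mark per cell cannot be told apart.

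Ribosomes are built in the nucleolus. RNA polymerase I transcribes the precursor of the ribosomal RNAs, small nucleolar ribonucleoproteins (snoRNPs) guide its chemical modification and folding, and the small subunit processome and a separate set of large subunit factors cut, fold and assemble it with ribosomal proteins. NPM1 is itself an abundant nucleolar protein, and its leukemia mutant is displaced to the cytoplasm. The members were ordered by these roles: 8 subunits of RNA polymerase I, 4 snoRNP genes, 16 small subunit genes and 7 large subunit genes. UTP14A, the X-linked parent gene of the member UTP14C, lies outside the autosomal rule.

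A peak was counted at a promoter where it overlapped, by at least 1 bp, the 1 kb on either side of an annotated transcript start. The deposited fold enrichment was used to rank or filter peaks within their own list, since it is scaled separately in each. A percentile of 99 means that the highest promoter peak of a gene stood above 99% of the peaks of that list, and a gene without a promoter peak was given 0. The lists held 327715 peaks for sgNeg H3K27Ac, 317059 for sgNpm1A H3K27Ac, 353628 for sgNeg H3K4me3 and 106641 for sgNpm1A H3K4me3. Read totals were not part of these lists. The narrowest H3K4me3 peak was 110 bp wide for sgNeg and 245 bp for sgNpm1A, while for H3K27Ac these widths were 110 bp and 140 bp. Of 10 myeloid marker genes, 10 had a sgNeg H3K27Ac promoter peak, 5 of them (CEBPA, HOXA9, MEIS1, MPO and SPI1) with a q-value under 1e-05. Of 12 markers of lymphoid, erythroid, liver, epithelial and neuronal cells, 9 had a sgNeg H3K27Ac peak and 0 had one at that q-value. In the sgNpm1A H3K27Ac list, 8 of the 10 myeloid markers and 7 of the 12 others had a promoter peak, and their part in the results was not tested.

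The DNA just upstream of the members' starts is shown first, because in the sgNeg H3K4me3 list no member was under a peak at 100 bp upstream. RefSeq promoter sequences (GRCh38.p14) were matched for 30 of the 35 members, and NOP58, UTP23, POLR1E, RRP12 and RRP1B had no entry. The 250 bases upstream of a start are printed for 5 members. RRP9 had a H3K4me3 peak among the members' 5 highest folds in sgNeg, and UTP18 tied with NOP9 at 9.98-fold. The UTP18 peak had its edge 374 bp upstream of the start, on the side of MBTD1, a gene on the opposite strand. The H3K4me3 peak downstream of the UTP18 start stood at percentile 98.18. UTP25 had a H3K27Ac peak over a start in sgNpm1A, but over its other annotated start. At the start printed here it had no such peak within 1 kb. UTP20 and UTP3 had no sgNpm1A H3K27Ac promoter peak. Capitals mark the E-box CACGTG, which MYC and related factors bind, and the ETS core CCGGAAG, each on either strand. RRP9 is on the minus strand and the others are on the plus strand, and all read 5′ to 3′ toward the gene.
RRP9, chr3:51941905-51942154, minus strand: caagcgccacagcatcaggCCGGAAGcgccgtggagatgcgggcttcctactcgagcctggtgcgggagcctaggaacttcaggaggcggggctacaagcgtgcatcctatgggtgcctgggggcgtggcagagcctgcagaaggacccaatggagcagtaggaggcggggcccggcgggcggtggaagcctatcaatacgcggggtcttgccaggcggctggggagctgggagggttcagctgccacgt
UTP18, chr17:51260296-51260545, plus strand: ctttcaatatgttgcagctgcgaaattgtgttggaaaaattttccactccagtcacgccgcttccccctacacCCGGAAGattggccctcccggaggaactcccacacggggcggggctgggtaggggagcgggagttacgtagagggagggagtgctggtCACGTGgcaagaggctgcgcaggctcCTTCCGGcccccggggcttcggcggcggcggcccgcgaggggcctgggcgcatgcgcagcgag
UTP25, chr1:209827722-209827971, plus strand: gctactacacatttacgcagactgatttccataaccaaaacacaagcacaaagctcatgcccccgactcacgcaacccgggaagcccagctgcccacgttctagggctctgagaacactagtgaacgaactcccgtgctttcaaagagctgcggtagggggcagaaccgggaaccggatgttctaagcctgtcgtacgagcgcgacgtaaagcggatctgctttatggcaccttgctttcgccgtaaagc
UTP20, chr12:101279855-101280104, plus strand: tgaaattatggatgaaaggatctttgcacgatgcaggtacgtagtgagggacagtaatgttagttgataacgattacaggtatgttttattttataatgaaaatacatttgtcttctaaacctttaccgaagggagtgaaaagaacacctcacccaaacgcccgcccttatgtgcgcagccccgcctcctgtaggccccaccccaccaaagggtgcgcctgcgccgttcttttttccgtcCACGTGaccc
UTP3, chr4:70688282-70688531, plus strand: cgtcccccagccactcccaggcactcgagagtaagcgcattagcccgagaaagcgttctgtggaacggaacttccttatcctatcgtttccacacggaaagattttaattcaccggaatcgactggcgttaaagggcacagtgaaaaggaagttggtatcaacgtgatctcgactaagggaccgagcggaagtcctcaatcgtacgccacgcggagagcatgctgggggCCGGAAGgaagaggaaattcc

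The window of UTP18 held 1 E-box and 2 ETS cores, that of UTP20 1 E-box, those of RRP9 and UTP3 1 ETS core each, and that of UTP25 none of either. Over the 30 matched members, CACGTG was found in 5 windows (16.7%) against 7.74% of 15071 other promoters, and CCGGAAG was found in 9 (30.0%) against 11.8%. The 5 with an E-box were NOP10, POLR1G, UTP4, UTP18 and UTP20. The GC box GGGCGG was present in 18 members (60.0%) against 56.1%, CCAAT in 8 (26.7%) against 34.2%, and TATAAA in 2 (6.67%) against 9.43%, all on either strand. The GC box and the other motifs were searched separately and may overlap. A match describes the letters only. The ratio of observed to expected CpG over the same 250 bases had a median of 0.912 in members and 0.738 in other promoters, and it passed 0.6 in 29 of 30 members (96.7%) against 63.7% of other promoters. The member below that limit was UTP14C, with a ratio of 0.102.

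In control cells nearly all members carried both marks. A sgNeg H3K27Ac promoter peak was present at 34 of 35 members (97.1%, 95% Wilson interval 85.5 to 99.5), against 81.2% of other promoters. A sgNeg H3K4me3 promoter peak was present at 34 of 35 members (97.1%), against 70.4%. The member without either mark was UTP14C, a retrotransposed copy of UTP14A. The intervals cover counting error only. With a q-value under 1e-05 required, the members with a peak were 23 for H3K27Ac, against 36.8% of other promoters, and 34 for H3K4me3, against 55.1%. The members' peaks also ranked high. At or above percentile 95 were 31 members for H3K27Ac, against 46.4% of other promoters, and 34 for H3K4me3, against 43.8%. At or above percentile 99 the members were not more frequent for H3K27Ac, with 5 of 35 against 16.1%, whereas 15 of 35 reached it for H3K4me3, against 16.6%.

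The median percentile in sgNeg was 97.5 for members and 93.3 for other promoters in H3K27Ac, and 33.1% of other promoters stood at or above the members' median. In H3K4me3 it was 98.8 for members and 88.8 for other promoters, of which 20.7% stood at or above the members' median. The members' sgNeg peaks were also wider, with a median of 2155 bp against 1525 bp for H3K27Ac and 1048.5 bp against 697 bp for H3K4me3. Over the 35 members the order by one mark was unrelated to that by the other, with a Spearman rho of 0.004, given as a description because the genes share their libraries.

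After knockout the H3K4me3 peaks of the members were no longer listed. In sgNpm1A H3K4me3, 0 of 35 members had a promoter peak, with a Wilson upper end of 9.89%, against 9.95% of other promoters. Of the 34 members with a sgNeg peak 34 had none in sgNpm1A, while among other promoters with a sgNeg peak 88.4% had none. Where the background was limited to promoters with a sgNeg q-value under 1e-05, a choice made after the data were seen, 91.9% of other promoters had none. Put the other way, 8.13% of those promoters had a peak in sgNpm1A, which lies within the interval for 0 of 34 members, whose upper end was 10.2%. No member met any stricter limit either, against 1.69% of other promoters with a q-value under 1e-05, 0.816% at percentile 95, 0.197% at percentile 99 and 2.57% with a peak over a start. Of the 5 members with a sgNeg H3K4me3 peak over a start 5 had none there in sgNpm1A, against 94.4% of other promoters. Within 3 kb of a start, 4 members had a sgNpm1A H3K4me3 peak, which were RRP1, RRP7A, RRP9 and RRP1B. All 4 of these peaks lay beyond 2 kb of the start. The sgNpm1A H3K4me3 list was the shortest of the 4 and had the widest minimum peak, and the part of depth in this result was not tested.

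For H3K27Ac the members' peaks ranked lower and were narrower after knockout, but many promoters still had a peak near some annotated start. In sgNpm1A, 26 of 35 members had a H3K27Ac promoter peak (74.3%, interval 57.9 to 85.8), against 59.6% of other promoters. UTP14C, the member without a sgNeg peak, had none in sgNpm1A. Of the members with a sgNeg promoter peak 8 of 34 had none in sgNpm1A, against 32.8% of other promoters. These 8 were POLR1G, POLR1H, NOP10, NOPCHAP1, UTP3, UTP6, UTP15 and UTP20. The percentile was lower in sgNpm1A in 34 of 35 members, against 67.0% of other promoters, and the median difference, sgNpm1A minus sgNeg, was -59.1 in members and -18.4 in other promoters. This comparison depends on how high the promoters stood in the control. Among promoters with a sgNeg q-value under 1e-05, the median difference was -59.1 over 23 members and -66.9 over 7056 other promoters, and 17 of the 23 members had a sgNpm1A promoter peak, while 40.2% of the other promoters had none.

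**Figure D1:**
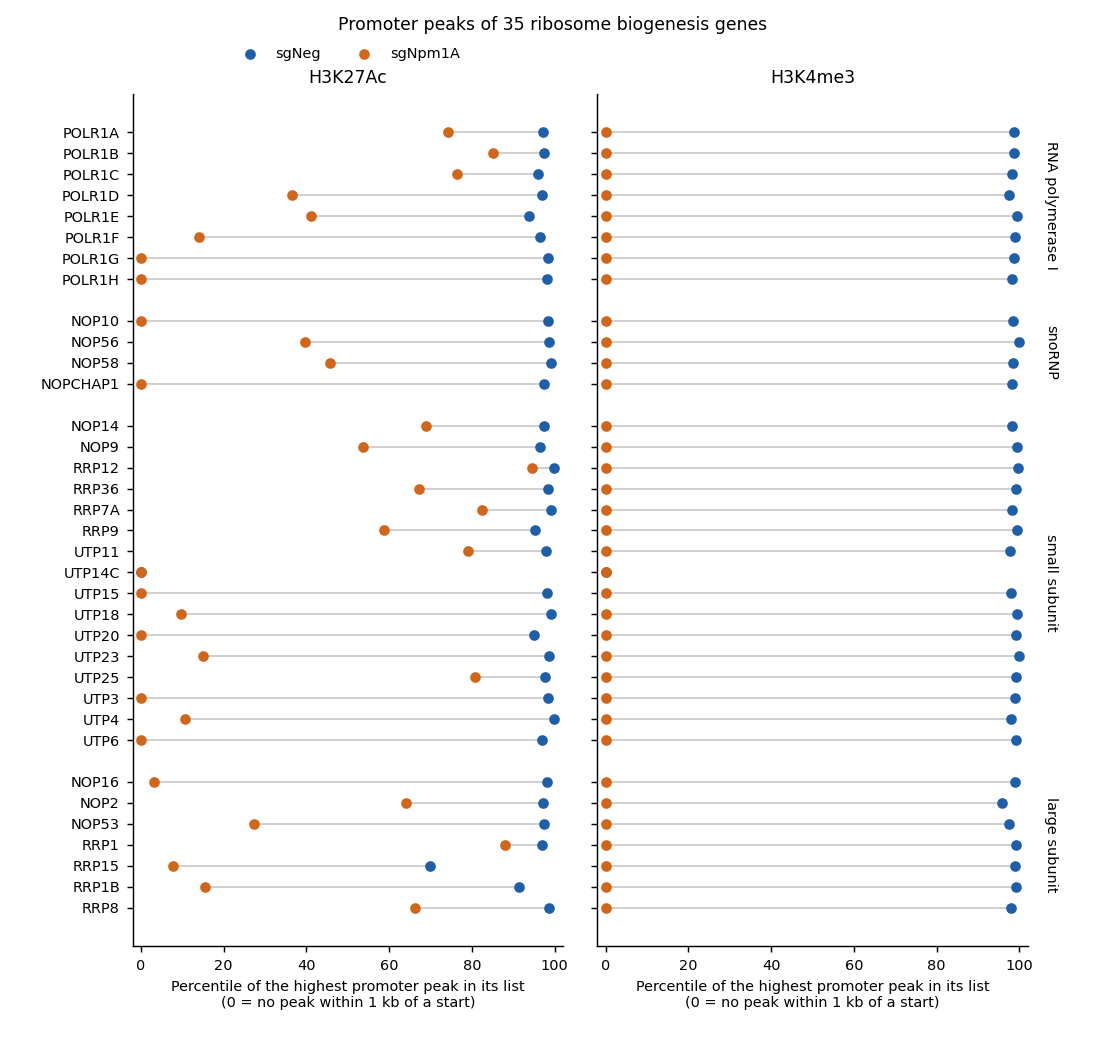
Percentile of the highest promoter peak of each of the 35 members in its own list (x axis, 0 to 100, where 0 means no peak within 1 kb of a start), for H3K27Ac on the left and H3K4me3 on the right, with blue points for sgNeg, orange points for sgNpm1A and a grey line joining the pair of 1 gene. In H3K4me3 all 35 orange points sit at 0, whereas in H3K27Ac they run from 0 to 94.5, and UTP14C is at 0 in all 4 lists.

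The sgNpm1A H3K27Ac peaks of the members were weak and mostly away from the start. The 26 peaks had a median percentile of 56.2, none had a q-value under 1e-05 (0.943% of other promoters had one), and 0 of 35 members reached percentile 95 or percentile 99, against 5.87% and 1.04%. With a q-value under 0.01, 10 members (28.6%) had a peak, against 31.9% of other promoters. A peak lay over a start itself in 31 members in sgNeg, against 65.8% of other promoters, and in 8 members in sgNpm1A, against 30.1%. For sgNeg H3K4me3 this held for 5 members, against 17.4%. Of the 31 members with a peak over a start in sgNeg 8 had one in sgNpm1A, while 62.0% of other promoters with such a peak had none. The 8 were POLR1A, POLR1B, POLR1E, NOP2, NOP53, NOP56, RRP12 and UTP25. Where only the start of the gene record was used in place of every transcript start, 12 of 35 members (34.3%) had a sgNpm1A H3K27Ac peak, against 33.8% of other promoters. The members' higher share was thus not seen at the start of the gene record alone, and they had a median of 6 annotated starts against 5. The highest sgNpm1A peak was narrower than the sgNeg peak in 23 of 26 members, against 70.9% of other promoters, with a median width ratio of 0.24 against 0.44. Among promoters with a sgNeg q-value under 1e-05 this contrast turned, with a narrower peak in 88.2% of members and 92.6% of other promoters and median ratios of 0.22 and 0.20. The pair of peaks compared need not be at the same start. The highest sgNeg peak was overlapped by any sgNpm1A peak in 16 of 34 members (47.1%), against 44.1% of other promoters. A sgNpm1A promoter peak that did not overlap the sgNeg peak was a separate peak, in some members at another start. The overlap was examined after the data were seen.

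**Figure D2:**
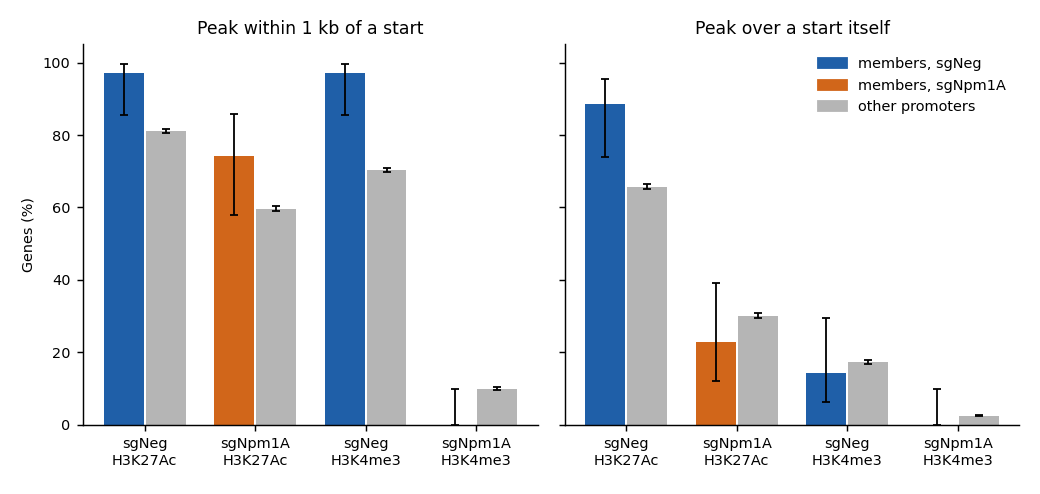
Share of genes (y axis, percent) with a peak within 1 kb of a transcript start (left) or over a start itself (right) in each of the 4 lists, with colored bars for the 35 members, grey bars for other promoters and black lines for 95% Wilson intervals, which cover counting error only. Within 1 kb the members stood at 97.1%, 74.3%, 97.1% and 0%, and over a start itself at 88.6%, 22.9%, 14.3% and 0%.

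The position of the peaks differed between the marks. For H3K27Ac, distances were taken from the start of the GENCODE gene record. For H3K4me3 they were taken from a start of the RefSeq promoter table, the one nearest to the gene record start. Genes without an entry in that table kept the start of the RefSeq gene record. Each is called the gene start below and in the figures that follow. For some members, such as RRP12 and UTP4, the gene record starts farther upstream in GENCODE than in RefSeq. The highest sgNeg H3K4me3 peak of NOP9 lay 28747 bp from its RefSeq gene record start and 100 bp from the start used. In sgNeg H3K27Ac, 28 of 35 members (80.0%) were under a peak at the start of the gene record, against 50.2% of other promoters, and the maximum was 32 members at 300 bp downstream. In sgNeg H3K4me3, 3 members were under a peak at the start (8.57% against 12.5% of other promoters), 0 at 100 bp upstream (against 8.16%) and 33 at 400 bp downstream (94.3% against 44.9%), with a lesser maximum of 11 members at 500 bp upstream (31.4% against 16.3%). The dip at the start was thus present at promoters in general. The summit of the highest H3K4me3 peak lay downstream of the nearest start in 30 of 34 members, against 77.1% of other promoters, at a median of 350 bp against 317 bp. Of the 34 members with a H3K4me3 peak within 1 kb of the gene start, 19 had it downstream only, 12 on both sides with the start left free, and 3 across the start. None of the 5 upstream windows printed above was touched by a sgNeg H3K4me3 peak. In sgNpm1A H3K27Ac, 1 member, POLR1E, was under a peak at the gene start (2.86% against 7.93% of other promoters), and at 4 to 5 kb from the start 12.7% of members were under a peak, against 11.2%. No rise at the members' starts was therefore seen in that list.

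**Figure D3:**
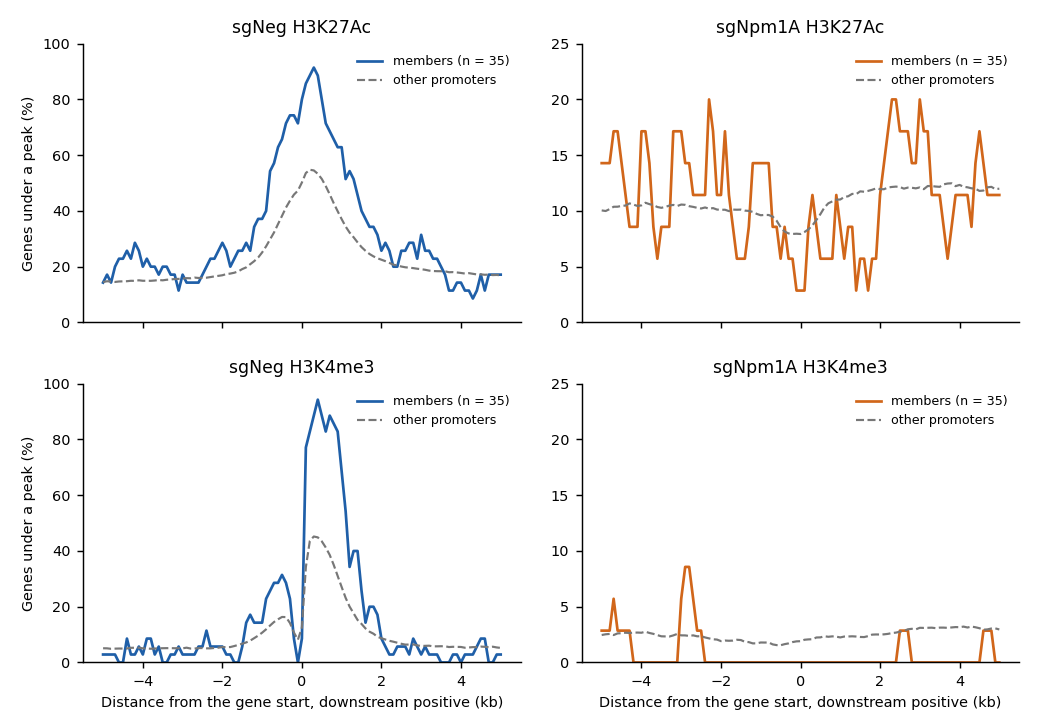
Share of genes under a peak (y axis, percent) by distance from the start of the gene (x axis, kb, downstream positive, in steps of 100 bp), with a solid colored line for the 35 members and a dashed grey line for other promoters, and a y axis that ends at 100% for sgNeg and at 25% for sgNpm1A. The sgNeg H3K27Ac line of the members rises over the start to 91.4%, the sgNeg H3K4me3 line reaches 94.3% downstream and falls to 0% at 100 bp upstream, and neither sgNpm1A line has a rise at the start.

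**Figure D4:**
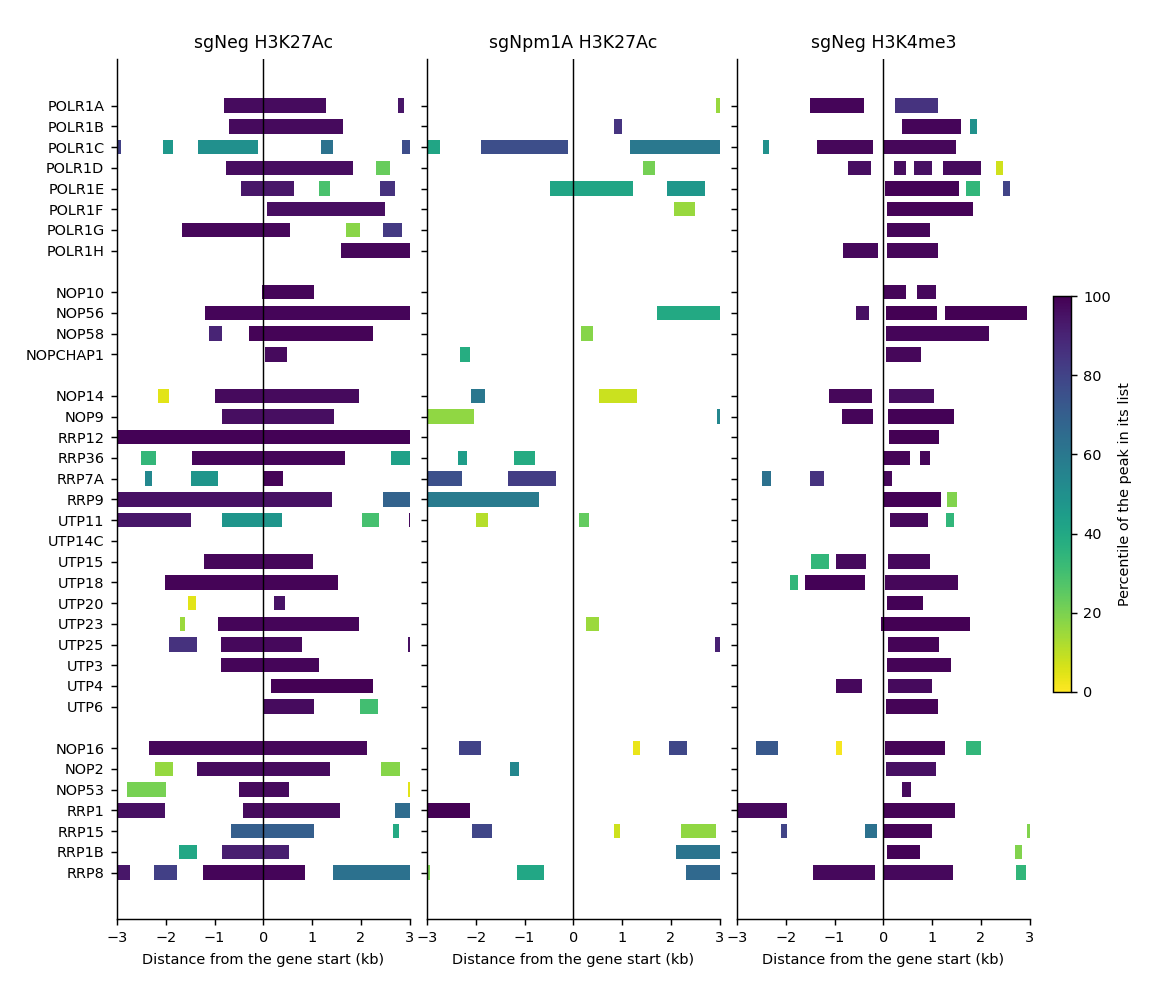
Every peak within 3 kb of the gene start of each member (x axis, kb, downstream positive) in 3 of the lists, with bars drawn from the edge to the edge of a peak, cut at 3 kb, and colored by its percentile in its list. Dark bars cover the start in sgNeg H3K27Ac and stop short of it in sgNeg H3K4me3, and the bars in sgNpm1A H3K27Ac are fewer, and 1 of them, at POLR1E, covers the start.

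The 8 subunits of RNA polymerase I all had both marks in sgNeg, at percentiles between 93.8 and 98.4 for H3K27Ac and between 97.4 and 99.4 for H3K4me3. In sgNpm1A 6 of the 8 had a H3K27Ac promoter peak, and 5 of the 8 highest sgNeg peaks were overlapped by some sgNpm1A peak. In POLR1C, POLR1D and POLR1F the overlapping peak was not the highest sgNpm1A promoter peak, whose percentile is given below. The median difference was -56.5 over the 8 genes. POLR1A and POLR1B encode the largest subunits, which form the catalytic center. The H3K27Ac percentile of POLR1A went from 97.1 in sgNeg to 74.1 in sgNpm1A, where the highest peak was 275 bp wide against 2105 bp, and its sgNeg H3K4me3 percentile was 98.8. That H3K4me3 peak had its edge 400 bp upstream of the start, on the side of the neighboring gene PTCD3. The H3K4me3 peak downstream of the POLR1A start stood at percentile 85.16. POLR1B went from 97.5 to 85.1 in H3K27Ac, with widths of 2333 bp and 168 bp, and stood at 98.8 in sgNeg H3K4me3. The sgNpm1A peak of POLR1A lay at another start and did not overlap its sgNeg peak, and 7.20% of the length of the POLR1B sgNeg peak was under a sgNpm1A peak. POLR1C and POLR1D are shared with RNA polymerase III. POLR1C stood at 96.0 and 76.35 in H3K27Ac for sgNeg and sgNpm1A and at 98.3 in sgNeg H3K4me3. POLR1D stood at 96.8 and 36.5 in H3K27Ac and at 97.4 in sgNeg H3K4me3. The highest sgNeg H3K27Ac peak of POLR1C lay 6199 bp from the start of the gene record, at another annotated start.

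POLR1E and POLR1G form a dimer that takes part in initiation. POLR1E went from 93.8 to 41.1 in H3K27Ac, and its sgNeg H3K4me3 percentile was 99.4, the highest of the 8. It was the member whose sgNeg H3K27Ac peak lay wholly, at 100% of its length, under sgNpm1A peaks. POLR1G had a 5.10-fold sgNeg H3K27Ac peak of 2222 bp (98.4) and no sgNpm1A peak, and its sgNeg H3K4me3 percentile was 98.8. The 2 members of the dimer therefore differed in whether a peak was left. POLR1F, which contacts the initiation factor RRN3, went from 96.4 to 13.95 in H3K27Ac and stood at 98.9 in sgNeg H3K4me3. POLR1H, which takes part in RNA cleavage by the enzyme, went from 98.2 to no peak in H3K27Ac and stood at 98.2 in sgNeg H3K4me3. With 1 library per guide none of these orders has an error between samples.

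The 4 snoRNP genes stood high in sgNeg. NOP56 and NOP58 are core proteins of the box C/D snoRNPs, which guide methylation of ribosomal RNA. NOP56 had the second of the members' sgNeg H3K4me3 folds at 12.5 (percentile 99.85), and its H3K27Ac percentile went from 98.75 to 39.6. NOP58 went from 99.1 to 45.6 in H3K27Ac, with widths of 2559 bp and 481 bp, and stood at 98.45 in sgNeg H3K4me3. NOP10, of the H/ACA snoRNPs that guide pseudouridylation, and NOPCHAP1, a chaperone of NOP58, had sgNeg H3K27Ac peaks at 98.5 and 97.4 and none in sgNpm1A. The pair of core box C/D genes thus had a sgNpm1A promoter peak, and the other pair did not. The highest sgNpm1A peak of NOP56 overlapped its sgNeg peak. That of NOP58 lay at another start. A weaker sgNpm1A peak, at percentile 18.17, overlapped the NOP58 sgNeg peak over 9.53% of its length.

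The 16 small subunit genes held the members' highest peak in each of the 3 lists with member peaks. UTP4 (GRCh37 chromosome 16, gene record 69165194 to 69265033), a processome subunit of the group that joins the RNA precursor early, had the highest sgNeg H3K27Ac fold of the members at 7.82 (99.8), and its sgNpm1A peak was 169 bp wide at percentile 10.6, with its edge 991 bp from a start. Its sgNeg H3K4me3 percentile was 97.9. RRP12 (GRCh37 chromosome 10, gene record 99116115 to 99185833), which takes part in export of pre-ribosomal subunits, had a 7.51-fold sgNeg H3K27Ac peak of 9141 bp (99.7), 58342 bp from the start of the gene record and within 1 kb of another annotated start. It also had the highest sgNpm1A H3K27Ac peak of the members, 467 bp wide at 3.65-fold (94.45, q-value 0.000717), and a 10.6-fold sgNeg H3K4me3 peak (99.6). These genes thus had similar sgNeg H3K27Ac ranks and lay far apart in sgNpm1A, but the peaks compared were not at like places. The sgNpm1A peak of UTP4 lay at another start and did not overlap its sgNeg peak. That of RRP12 lay within its sgNeg peak. Neither gene had a sgNpm1A H3K27Ac peak within 3 kb of the start of its gene record.

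RRP7A, which binds the small subunit precursor, went from 99.1 to 82.4 in H3K27Ac and stood at 98.2 in sgNeg H3K4me3, where its peak was the narrowest of the members at 166 bp. UTP18, a processome subunit, went from 99.1 to 9.65 in H3K27Ac and stood at 99.5 in sgNeg H3K4me3, by a peak upstream of its start. The sgNpm1A H3K27Ac peaks of RRP7A and UTP18 did not overlap their sgNeg peaks, and that of UTP18 lay at another start. UTP25, also of the processome, went from 97.7 to 80.7 in H3K27Ac, with widths of 1660 bp and 2183 bp, and stood at 99.15 in sgNeg H3K4me3. Its sgNpm1A peak did not overlap the sgNeg peak and lay at its other annotated start. UTP23, a processing factor, had the highest sgNeg H3K4me3 fold of the members at 13.1 (99.9), and its H3K27Ac percentile went from 98.7 to 15.1. RRP9, a protein of the U3 snoRNP, had a 10.2-fold sgNeg H3K4me3 peak (99.5) and went from 95.4 to 58.8 in H3K27Ac, with widths of 7011 bp and 4979 bp. NOP9, an RNA-binding factor, had a 9.98-fold sgNeg H3K4me3 peak (99.5) and went from 96.4 to 53.7 in H3K27Ac, with peaks that did not overlap. The members with the highest sgNeg H3K4me3 folds were thus spread over the sgNpm1A H3K27Ac ranks.

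Of the remaining small subunit genes, NOP14, RRP36 and UTP11 had a sgNpm1A H3K27Ac peak, at percentiles of 69.0, 67.3 and 79.0. None of these peaks overlapped the highest sgNeg peak of its gene. In NOP14 and RRP36 a weaker sgNpm1A peak overlapped it, and in UTP11 no sgNpm1A peak did. UTP3, UTP6, UTP15 and UTP20 had sgNeg H3K27Ac percentiles between 95.03 and 98.5 and none in sgNpm1A. UTP14C stood at 0 in all lists. Over the 16 genes, 11 had a sgNpm1A H3K27Ac peak and the median difference was -39.7.

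The 7 large subunit genes all had a H3K27Ac promoter peak in sgNpm1A, with a median difference of -62.2. The highest sgNeg peak was overlapped by some sgNpm1A peak in 4 of the 7, and not in NOP53, RRP1 and RRP1B. In NOP2 and RRP8 it was a weaker sgNpm1A peak that overlapped. The highest sgNpm1A promoter peaks of NOP53, RRP1, RRP1B, NOP2 and RRP8 were separate ones. RRP1, an early assembly factor, went from 97.0 to 88.1, with its sgNpm1A peak 767 bp from a start, and stood at 99.15 in sgNeg H3K4me3. NOP2, which methylates the large ribosomal RNA, went from 97.15 to 64.1 and had the lowest sgNeg H3K4me3 percentile among members with a peak, 95.9. RRP8, another methyltransferase of ribosomal RNA, went from 98.6 to 66.2. Percentiles in sgNpm1A were lower for NOP53 (27.4), RRP1B (15.5), RRP15 (7.80) and NOP16 (3.21). RRP15 was also the lowest of the members with a sgNeg H3K27Ac peak, at 70.0, although its sgNeg H3K4me3 percentile was 99.1.

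The members often shared their promoter with a neighbor. Another coding gene started on the opposite strand within 1 kb, head to head, at 15 of 35 members (42.9%, interval 28.0 to 59.1), against 13.5% of other promoters. The starts were 68 bp apart for POLR1A and PTCD3, 92 bp for RRP8 and ILK, and 70 bp for NOP9 and DHRS1, by the starts of the GENCODE gene records. The highest sgNeg peak also lay within 1 kb of a start of another coding gene in 15 of 34 members (44.1%) for H3K27Ac, against 26.5% of other promoters, and in 16 of 34 (47.1%) for H3K4me3, against 21.2%. A peak at such a promoter cannot be given to 1 of the 2 genes.

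Ribosome biogenesis genes outside the naming rule also had both marks in sgNeg and few H3K4me3 peaks in sgNpm1A. Their share of sgNpm1A H3K27Ac peaks was lower than the members' within 1 kb of a start, with overlapping intervals, and alike over a start itself. Of 118 autosomal genes of the pathway, from a list that holds RNA polymerase I factors, snoRNP proteins, subunit assembly factors and exosome subunits, 118 had a sgNeg H3K27Ac promoter peak and 114 a sgNeg H3K4me3 peak. In sgNpm1A, 71 (60.2%, interval 51.2 to 68.5) had a H3K27Ac peak. Among those with a sgNeg peak this held for 76.5% of members (interval 60.0 to 87.6) and 67.2% of other promoters. Of 109 pathway genes with a sgNeg peak over a start, 29 (26.6%) had one over a start in sgNpm1A. For members and other promoters this share was 25.8% and 38.0%. In sgNpm1A H3K4me3, 1 pathway gene had a promoter peak. That gene was EXOSC4, a subunit of the RNA exosome, at percentile 92.6. The H3K27Ac percentile was lower in sgNpm1A in 116 and higher in 2, with a median difference of -69.6. The highest sgNeg H3K27Ac percentiles of the list were at EXOSC6, also an exosome subunit (99.95), NCL, which encodes nucleolin (99.9), and SNU13, a protein of box C/D snoRNPs (99.8). In sgNpm1A they were at NOC2L (97.2), DDX54 (97.0) and RSL24D1 (96.2), which are factors of the large subunit.

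Of the families set beside the members, the genes for cytosolic ribosomal proteins had the lowest share with a sgNpm1A H3K27Ac promoter peak. A sgNpm1A peak was present at 29 of the 80 with a sgNeg peak (36.3%, interval 26.6 to 47.2), at 34 of 77 genes for mitochondrial ribosomal proteins (44.2%, interval 33.6 to 55.3) and at 22 of 37 genes for proteasome subunits (59.5%, interval 43.5 to 73.7). Among members it was present at 26 of 34 (76.5%, interval 60.0 to 87.6). Median differences in percentile were -97.7, -94.97 and -62.3 for the 3 families, next to -59.1 for the members. In sgNpm1A H3K4me3, a promoter peak was present at 2 of 82 genes for cytosolic ribosomal proteins, 1 of 77 for mitochondrial ones, 0 of 38 for proteasome subunits and 0 of 35 members. These intervals cover counting error only, and no test of the difference between families was made.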

How the data were processed

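ChIPmentation peak lists of OCI-AML3 cells were used, with 1 library for each guide and mark. Sample titles gave the groups. The submitters' processing notes name bcl2fastq 2.17, Trimmomatic 0.33, Bowtie 1.1.2, MACS2 2.1.0, deepTools and the build hg38. Peaks had been called by the authors in each library on its own, with broad calling for H3K27Ac and narrow calling for H3K4me3, and the use of the inputs was not stated. The fold enrichment deposited with each peak is the ratio of its pileup to the background. The −log10 p-value and the −log10 of the q-value were also deposited by the authors for each peak. For H3K27Ac the largest q-value was 0.0707 in sgNeg and 0.0437 in sgNpm1A, and for H3K4me3 it was 0.0308 and 0.0226. Narrow peaks and broad peaks are not comparable in width or fold. The H3K27Ac lists held peaks on chromosome 1 up to 249218478, beyond the end of that chromosome in GRCh38, and were read as GRCh37. The H3K4me3 lists held peaks on chromosome 17 up to 83201881, beyond its end in GRCh37, and were read as GRCh38. The tag in the H3K27Ac list names is absent from the H3K4me3 names, and its meaning was not stated.

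On GRCh37, 141551 transcript starts came from GENCODE version 44. For GRCh38, the start of each RefSeq gene record and the starts of the RefSeq promoter table were used (26783 starts, none of the table on chromosome 8), and 349 genes without a strand were left out. Ties in fold were given their mean rank. Of the 121 entries of the pathway list, 118 were matched. Overlap counting was checked on simulated peaks. Python 3.11.15, pandas 2.3.3, numpy 2.4.6, scipy 1.17.1 and matplotlib 3.10.9 were used. The members, gene lists and motifs were chosen with earlier results of these data known. Members named in full were the 5 highest in each sgNeg list and in sgNpm1A H3K27Ac, those with no sgNeg peak of either mark, and the 8 POLR1 genes, and of the pathway the 3 highest in each H3K27Ac list and any with a sgNpm1A H3K4me3 peak. Alternatives were other peak limits, windows and starts, ranking by p-value and the widest peak.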

Additional observations from a re-analysis of the deposited data

How the results depend on the processing

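Under the alternatives 86 recomputed summary values stayed within their counting interval and 25 moved beyond it. The sgNeg H3K27Ac share was 65.7% (other promoters 36.8%) with a q-value under 1e-05 and 80.0% (41.8%) with a fold of at least 4. The sgNpm1A H3K27Ac share was 28.6% (31.9%) with a q-value under 0.01, 0% with a q-value under 1e-05 (0.943%) or a fold of at least 4 (2.42%), 2.86% (7.54%) in the 20000 peaks with the lowest p-values, 57.1% (49.9%) within 500 bp, 22.9% (30.1%) over a start and 34.3% (33.8%) at the start of the gene record. The members' median percentile in that list became 0 under each of these except the 500 bp window, and the median width over a start was 1767 bp. With a peak over a start required, the sgNeg H3K4me3 share was 14.3% (17.4%), its median percentile 0 and the median H3K4me3 difference 0. The median H3K27Ac difference was -96.4 with a q-value under 0.01, -97.5 with a q-value under 1e-05, a fold of at least 4 or the 20000 peaks, -96.8 over a start and -96.4 at the gene record, and it was smaller, at -36.6, within 2 kb. The H3K27Ac difference turned positive for RRP15 within 2 kb (9.05) and for POLR1C at the gene record (26.1), and of the other values for single genes 190 moved and 438 did not. The H3K4me3 result at gene record starts, the overlap of peaks between guides and the background limited by sgNeg q-value were chosen after seeing the data. No paired analysis was possible because each group held 1 library, and for the same reason no library could be left out.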

Other observations

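The 5 members with CACGTG in the 250 bases upstream of the start were among the lowest by H3K27Ac in sgNpm1A. NOP10, POLR1G and UTP20 had no peak there, and UTP18 and UTP4 stood at percentiles of 9.65 and 10.6. The sgNpm1A peaks of UTP18 and UTP4 lay at another annotated start and did not overlap their sgNeg peaks. Of the 24 matched members with a sgNeg peak and no CACGTG, 19 had a sgNpm1A peak near some annotated start (79.2%). The median percentile of the 24 was 56.2. Among other promoters with a sgNeg peak the share with one in sgNpm1A was 67.0% of 1003 with CACGTG and 66.1% of 10961 without it. Median differences in percentile there were -42.0 and -36.4. Low ranks were not particular to CACGTG. By median sgNpm1A percentile, matched members with a sgNeg peak stood at 10.6 with CCGGAAG and 38.0 without it. For CCAAT the medians were 10.1 and 64.1, and for TATAAA 13.7 and 39.6. For GGGCGG the order was the other way, at 38.0 and 27.4. Among other promoters with a sgNeg peak the median difference was -60.9 with CCGGAAG and -33.3 without it. The CACGTG pattern in the members was noticed in these data, rests on 5 genes and was not tested.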
